A study of Mus with 51 samples.

Results

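A set of 10 genes that encode secreted effector cytokines and chemokines of activated T cells was followed through every library of the series: Tnf, Lta, Ccl3, Ccl4, Xcl1, Il3, Csf2, Ifng, Il21 and Il4. They were chosen by symbol, without Il2, and are 10 of the 34923 features of the count table. All 10 passed the filter on low counts that kept 17211 genes. The cells came from lymph nodes of 5C.C7 TCR transgenic mice, labelled B10.A-Rag2tm1FwaH2-T18aTg (Tcra5CC7,Tcrb5CC7)lwep, a strain in which every group shares the Rag2 deficiency and a single transgenic T cell receptor that recognises a moth cytochrome c peptide (MCC). The 51 libraries, of poly-adenylated RNA, form 18 groups: each of 6 sorted phenotypes was taken at 1, 6 and 24 h. The phenotypes were MCC+GP CD69-hi, MCC CD69-hi, MCC+GP CD69-lo, MCC CD69-lo, GP alone, and no peptide (NP). CD69 is a surface protein that T cells display soon after their receptor is engaged, and -hi and -lo name its 2 sort gates. GP is not spelled out in the labels; the series title speaks of endogenous self-peptides. NP, GP and MCC CD69-lo hold 2 libraries each at 6 h, and the other 15 groups hold 3. Whether replicates are separate animals is not stated in the labels, and every p-value measures only the spread between these libraries, which may be technical. Ages are not given in the labels.

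When a T cell receptor binds its peptide, calcium and kinase signals bring NFAT, NF-kB and AP-1 factors to cytokine genes, and a rapid burst of unstable messenger RNA follows. Many cytokine messages carry AU-rich elements, through which proteins of the Zfp36 family drive their decay. Tumour necrosis factor (Tnf) and lymphotoxin alpha (Lta) are neighbours in 1 gene cluster and act on inflammatory receptors. Ccl3 and Ccl4 are inflammatory chemokines that attract monocytes and T cells, and Xcl1 attracts cross-presenting dendritic cells through Xcr1. Interferon gamma (Ifng), interleukin 4 (Il4) and interleukin 21 (Il21) are the signature cytokines of type 1, type 2 and follicular helper T cells, and Il3 and Csf2 act on myeloid cells.

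Several of the genes lie side by side in the mouse genome (RefSeq annotation, GRCm38.p6). Tnf occupies chr17:35199367-35202007 and Lta chr17:35203165-35205578, separated by 1157 bases. Csf2 at chr11:54247270-54249899 and Il3 at chr11:54265085-54267279 are 15185 bases apart, and Il4 lies on the same chromosome at chr11:53612460-53618665. Ccl3 at chr11:83647843-83649378 shares 755 bases with the annotated span of Ccl4 at chr11:83648624-83664683, and annotated noncoding RNAs overlap Il3, Csf2 and Il21. Whether reads were counted by strand is not given in the sources used here, so the division of reads between overlapping genes is uncertain.

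The libraries held between 29030 and 10278776 counts (median 5436653). The 1 h CD69-hi libraries were smaller than most, with 930161 to 1105292 counts in MCC+GP CD69-hi and 852129 to 3346959 in MCC CD69-hi. At 24 h the MCC+GP CD69-lo group stood apart, its 3 libraries holding 29030 to 301455 counts, so that 1 read there is worth several CPM (counts per 1000000 counts, with library sizes scaled by edgeR's TMM method). A list of 12 CD4 T-cell genes summed to 2904 to 4175 CPM in those 3 libraries and to 9402 to 10653 CPM in MCC CD69-lo at 24 h. Cd3e and Cd4 were detected in every group, with the lowest Cd4 values, 79.4 to 93.1 CPM, in MCC CD69-hi at 6 h, against 554 to 573 CPM in NP.

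RNA of other cell types differed between the groups as well. The summed level of 20 B-cell genes was 2972 to 4791 CPM in MCC CD69-hi at 1 h, against 637 to 857 CPM in NP, and 11 MHC class II genes summed to 3287 to 6077 CPM, against 395 to 729 CPM. At 24 h a list of 21 myeloid and dendritic genes summed to 4755 to 8344 CPM in MCC+GP CD69-lo, 189 to 401 CPM in MCC CD69-hi, 1249 to 1855 CPM in MCC CD69-lo and 84.5 to 289 CPM in NP. In these bulk samples more cells of a type and more RNA per cell cannot be told apart, and the part of these cells in the cytokine values was not tested.

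Per unit of transcript length, the mixture of cytokine messages changed with time in CD69-hi cells. In TPM as deposited, whose columns sum to about 10000, the 10 genes together reached 5.09 in MCC CD69-hi at 1 h, 10.6 at 6 h and 8.65 at 24 h, against 0.185, 0.322 and 0.116 in NP at those times. Tnf made up 63.9% of that sum in MCC CD69-hi at 1 h, 34.6% at 6 h and 7.34% at 24 h. Ccl3 and Ccl4 held 10.3% and 14.5% at 1 h, 5.83% and 23.3% at 6 h, and 37.6% and 35.4% at 24 h. Xcl1 held 0% at 1 h, 19.7% at 6 h and 3.25% at 24 h, and Il3 held 0.0413%, 0.629% and 6.89% at the same times. Csf2, Ifng, Il21 and Il4 each made up at most 1.27% of the sum in MCC CD69-hi at each time.

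**Figure D1:**
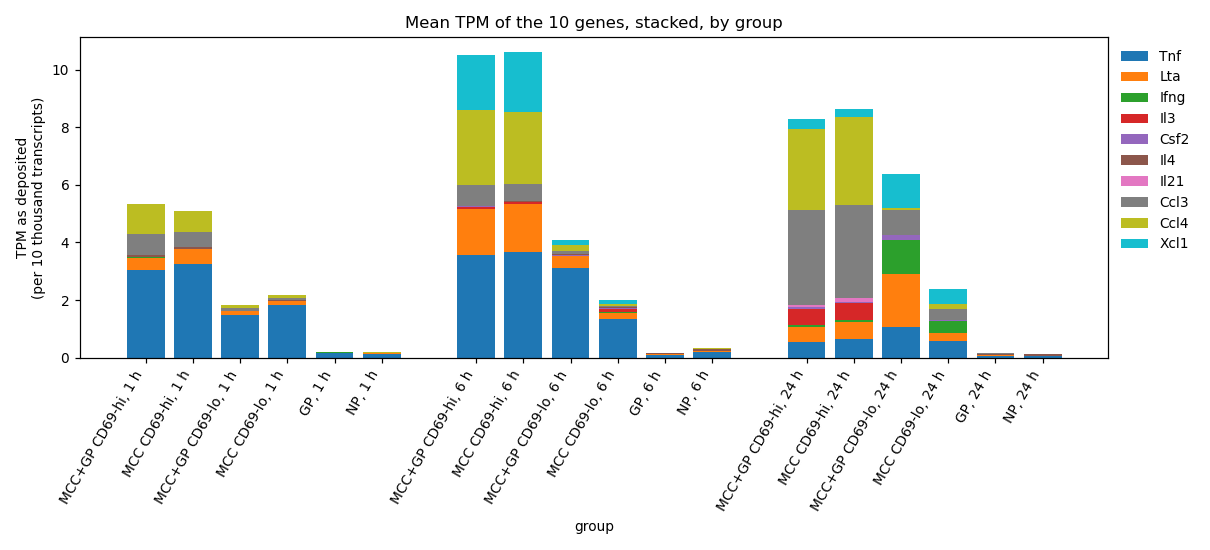
Mean TPM as deposited (columns summing to about 10000) of the 10 genes, stacked, for the 6 phenotypes at 1, 6 and 24 h; bar height is the sum of the means. Tnf fills most of the 1 h bars, Ccl3 and Ccl4 most of the 24 h CD69-hi bars, and the GP and NP bars stay at or below 0.322.

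Tnf and Lta, the 2 genes of the tumour necrosis factor family in the set, were already raised at 1 h. In MCC CD69-hi Tnf had 179, 448 and 531 CPM at 1 h, 260, 532 and 669 CPM at 6 h and 62.6, 97.0 and 86.0 CPM at 24 h. In NP it had 13.2, 17.8 and 11.6 CPM at 1 h, 38.7 and 7.39 CPM at 6 h and 5.83, 4.33 and 2.73 CPM at 24 h. Every MCC CD69-hi library lay above every NP library of its time, although replicate 1 of NP at 6 h stood far above replicate 2. Tnf was higher in MCC CD69-hi than in NP by 4.76 ± 0.52 at 1 h (log2 fold change ± SE, adjusted p = 7.51e-09), 4.39 ± 0.59 at 6 h (adjusted p = 8.99e-08) and 4.28 ± 0.57 at 24 h (adjusted p = 5.47e-08). Here and below, adjusted p comes from edgeR's quasi-likelihood test with Benjamini-Hochberg adjustment over the 17211 genes, and a gene is called at 0.05.

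The level of Tnf fell after 6 h in both groups. In MCC CD69-hi it fell by 2.57 ± 0.44 on the log2 scale at 24 h against 6 h (adjusted p = 1.8e-05), and in NP by 2.46 ± 0.63 (adjusted p = 0.0223). Without NP 6 h replicate 1 the NP change was -0.82 on the log2 scale (adjusted p = 0.955), and the call was also lost without NP 24 h replicate 2 or 3 (adjusted p = 0.0934 and 0.126) and when only the compared groups were fitted (adjusted p = 0.327).

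Lta followed Tnf at a lower level and with a sharper 6 h maximum. It had 41.7, 80.4 and 39.6 CPM in MCC CD69-hi at 1 h, 168, 198 and 220 CPM at 6 h and 70.3, 72.2 and 61.6 CPM at 24 h. In NP it had 4.0, 5.40 and 5.57 CPM at 1 h, 3.29 and 3.87 CPM at 6 h and 3.62, 3.58 and 1.82 CPM at 24 h. No library of the 2 groups overlapped at any time, and the NP level stayed within 1.82 to 5.57 CPM. Lta was higher in MCC CD69-hi than in NP by 3.35 ± 0.39, 5.76 ± 0.46 and 4.52 ± 0.40 on the log2 scale at 1, 6 and 24 h (adjusted p = 1.12e-08, 9.81e-14 and 5.98e-13). The difference between the groups was larger at 6 h than at 1 h by 2.41 ± 0.61 (adjusted p = 0.00189). Within MCC CD69-hi, Lta rose by 1.96 ± 0.32 at 6 h against 1 h and fell by 1.52 ± 0.29 at 24 h against 6 h (adjusted p = 3.13e-06 and 5.57e-05).

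**Figure D2:**
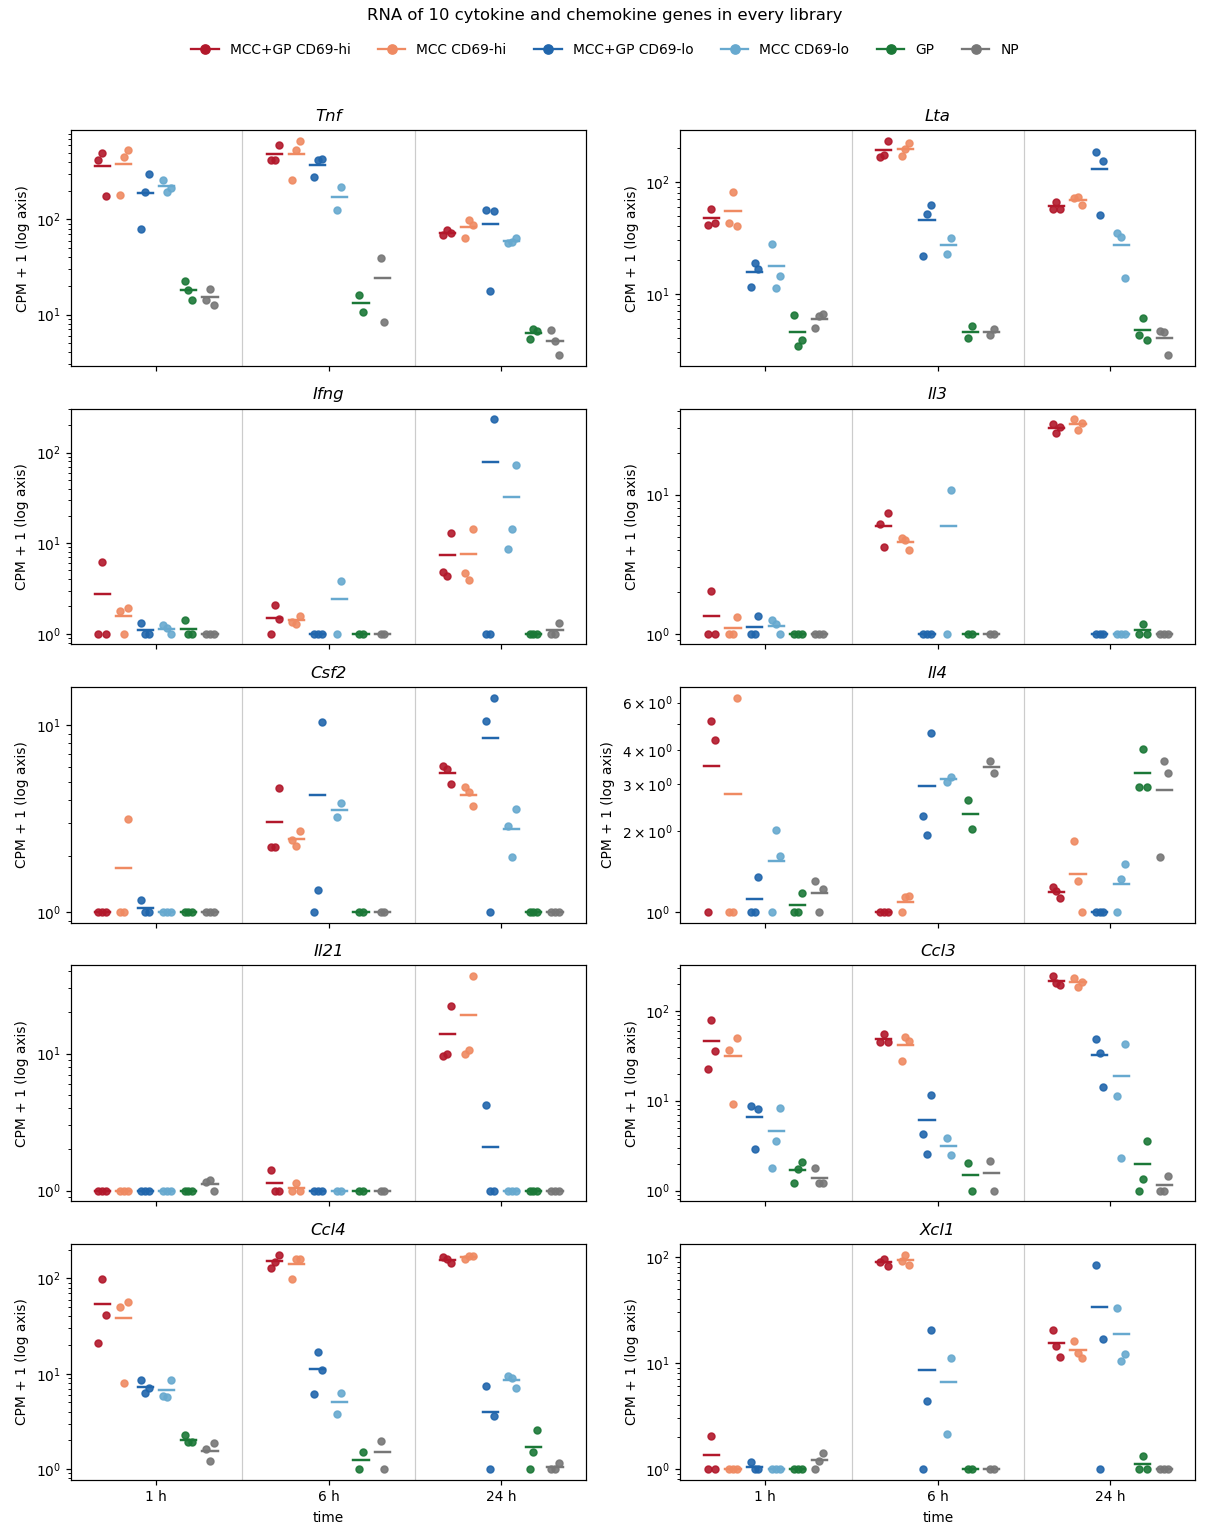
CPM + 1 on a log axis for each of the 10 genes, by time, with 1 point per library and a bar at the group mean; the 6 phenotypes are drawn left to right as in the legend. Tnf and Lta are high at 1 h, Xcl1 appears at 6 h, and Il3 and Il21 stand highest at 24 h in the 2 CD69-hi groups.

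The 2 CC chemokines, Ccl3 and Ccl4, differed in their later course. Ccl3 had 35.4, 8.16 and 48.5 CPM in MCC CD69-hi at 1 h, 26.8, 49.5 and 45.1 CPM at 6 h and 233, 183 and 208 CPM at 24 h, against at most 1.15 CPM in any NP library. Ccl4 had 49.2, 6.99 and 55.7 CPM in MCC CD69-hi at 1 h, 98.2, 160 and 160 CPM at 6 h and 161, 172 and 172 CPM at 24 h, against at most 0.988 CPM in NP. Replicate 2 of MCC CD69-hi at 1 h was low for both chemokines, but it lay above every NP library. That library was the shallowest of its group, with 852129 counts against 2530219 and 3346959. It held 2972 CPM of B-cell genes and 664 CPM of myeloid and dendritic genes, against 4091 to 4791 CPM and 1129 to 1182 CPM in the other 2 libraries of its group. The part of depth and that of these cells were not tested.

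Ccl3 was higher in MCC CD69-hi than in NP by 6.23 ± 1.00 at 1 h, 6.03 ± 1.07 at 6 h and 9.998 ± 1.01 at 24 h on the log2 scale (adjusted p = 1.05e-05, 1.2e-05 and 1.4e-10). Ccl4 was higher at these times as well, by 6.16 ± 0.64 at 1 h, 8.03 ± 0.71 at 6 h and a fitted 10.94 at 24 h (adjusted p = 1.63e-09, 4.53e-12 and 3.75e-15). The sizes of the later differences rest on few NP reads. At 6 h all 7 Ccl3 and 6 Ccl4 reads of NP lay in replicate 1, and leaving out libraries in turn gave 5.11 to 10.6 for Ccl3 and 7.10 to 12.37 for Ccl4, the highest being values fitted against no NP read. At 24 h NP held 3 Ccl3 reads and 1 Ccl4 read, so that the 95% counting interval of the log2 ratio of summed counts ran from 8.65 to 12.48 for Ccl3 and from 8.99 to 16.77 for Ccl4. Within MCC CD69-hi, Ccl3 rose between the last 2 times, by 2.36 ± 0.54 at 24 h against 6 h (adjusted p = 0.000727), whereas Ccl4 rose earlier, by 1.74 ± 0.37 at 6 h against 1 h (adjusted p = 0.000239). The Ccl4 call was lost when only the compared groups were fitted (adjusted p = 0.0842). The difference between MCC CD69-hi and NP in Ccl4 was larger at 24 h than at 1 h by 4.78 ± 1.84 (adjusted p = 0.0331), with NP at 0 to 0.857 CPM at both times. That call was lost when only the compared groups were fitted (adjusted p = 0.0656), with no filter on low counts (adjusted p = 0.0732) and without any of 4 NP libraries (adjusted p = 0.0653 to 0.103).

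Xcl1 was seen in MCC CD69-hi cells from 6 h on, with its maximum at that time. No read was counted in MCC CD69-hi at 1 h, and 3 reads in NP. At 6 h Xcl1 had 90.6, 104 and 83.4 CPM in MCC CD69-hi and no read in NP, and at 24 h it had 15.2, 11.5 and 10.1 CPM in MCC CD69-hi and no read in NP. The 6 h libraries were thus all higher than the 24 h libraries, with no overlap. The group means correspond to an at least 363-fold higher level at 6 h and an at least 68.9-fold higher level at 24 h than 3 counts over the NP group (adjusted p = 3.66e-06 and 0.000116). At 24 h against 6 h, Xcl1 fell by 2.92 ± 0.68 on the log2 scale within MCC CD69-hi (adjusted p = 0.0013). In MCC+GP CD69-hi it fell by 2.59 ± 0.67 (adjusted p = 0.00305), a call that DESeq2 did not make (adjusted p = 0.0756).

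Il3 and Csf2, growth factors for myeloid cells that lie next to each other on chromosome 11, differed in level. Il3 had 0, 0 and 0.309 CPM in MCC CD69-hi at 1 h, 3.91, 3.75 and 3.02 CPM at 6 h and 33.8, 28.2 and 31.8 CPM at 24 h, and no read in any NP library. Each time was separate from the next, and Il3 was at least 13.9-fold higher than 3 counts over the NP group at 6 h and at least 176-fold higher at 24 h (adjusted p = 0.000221 and 6.1e-10). Within MCC CD69-hi it rose by 3.13 ± 0.58 on the log2 scale at 24 h against 6 h (adjusted p = 4.32e-05), a call that DESeq2 did not make (adjusted p = 0.132).

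Csf2 stayed low. It had 0, 0 and 2.17 CPM in MCC CD69-hi at 1 h, 1.42, 1.25 and 1.72 CPM at 6 h and 3.66, 3.37 and 2.72 CPM at 24 h, with no read in NP. The 1 h call (adjusted p = 0.03) came from 7 reads in replicate 3 alone and was lost without that library (adjusted p = 1) or without any of the NP libraries (adjusted p = 0.0651 to 0.0768). At 6 h Csf2 was at least 5.74-fold higher than 3 counts over the NP group (adjusted p = 0.0095), a call that was lost without either NP library (adjusted p = 0.0674 and 0.0704), and at 24 h it was at least 18.3-fold higher (adjusted p = 0.000131).

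Ifng RNA was scarce in CD69-hi cells. It had 0.787, 0 and 0.928 CPM in MCC CD69-hi at 1 h, 0.355, 0.278 and 0.574 CPM at 6 h and 3.66, 2.91 and 13.2 CPM at 24 h, against 2 reads in all 8 NP libraries, both in 1 library of 24 h. Replicate 3 was well above the other 2 libraries of its group at 24 h. In edgeR Ifng was called at 24 h only, 5.54 ± 1.6 higher on the log2 scale than in NP (adjusted p = 0.00416). With 2 reads in NP, the 95% counting interval of that log2 ratio was 3.96 to 8.90. DESeq2 also called Ifng higher at 1 h and 6 h (adjusted p = 1.67e-11 and 4.63e-11). Those calls rest on 5 and 8 reads in MCC CD69-hi and no read in NP.

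Il21 was counted almost only in the CD69-hi groups at 24 h. It had 8.87, 9.65 and 35.6 CPM in MCC CD69-hi and 8.58, 8.91 and 21.1 CPM in MCC+GP CD69-hi at 24 h, against no read in NP at 24 h, and 6 reads over all libraries of the other 16 groups. Replicate 3 was the highest of both groups, as it was for Ifng and for Tbx21, the type 1 helper regulator. At 24 h Il21 in MCC CD69-hi was at least 101-fold higher than 3 counts over the NP group (adjusted p = 3.83e-09). The call was lost when only the compared groups were fitted (adjusted p = 0.0776) and in DESeq2 (adjusted p = 0.376).

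Il4 went the other way at 6 h and 24 h. It had 0, 0 and 5.26 CPM in MCC CD69-hi at 1 h, 0, 0.139 and 0.144 CPM at 6 h and 0.845, 0.306 and 0 CPM at 24 h. In NP it had 0.307, 0 and 0.214 CPM at 1 h, 2.63 and 2.29 CPM at 6 h and 0.603, 2.64 and 2.28 CPM at 24 h. The 6 h groups did not overlap, and those of 24 h overlapped in 1 NP library. Il4 was lower in MCC CD69-hi than in NP by -4.30 ± 1.16 on the log2 scale at 6 h (adjusted p = 0.0016) and by -2.20 ± 0.94 at 24 h (adjusted p = 0.0403). The 24 h call was lost without any 1 of 4 libraries (MCC CD69-hi replicates 2 and 3, NP replicates 2 and 3), with adjusted p between 0.0961 and 0.167. A list of 11 genes of mast cells, basophils and innate-like T cells, which also make Il4, was summed at 6 h. The sum was 22.3 to 29.5 CPM in MCC CD69-hi against 1.06 to 5.93 CPM in NP. Of the 11 genes, 6 had a count in MCC CD69-hi and 7 in NP, and which cells gave these reads was not tested. The part of such cells in the Il4 values was not tested either. The higher value at 1 h (3.38 ± 1.12, adjusted p = 0.0181) came from 17 reads in replicate 3, and without it the log2 fold change was -2.97 (adjusted p = 0.547). That call was also lost without NP replicate 2 (adjusted p = 0.071) and when only the compared groups were fitted (adjusted p = 0.0727).

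Counted over the set, 6 of the 10 genes were higher and 0 lower in MCC CD69-hi than in NP at 1 h, where 29.4% of all genes tested were called, 12.4% higher and 17% lower. At 6 h 7 were higher and 1 lower, beside 46.7% of all genes (23.2% higher, 23.6% lower). At 24 h 9 were higher and 1 lower, beside 57.8% (29.2% higher, 28.7% lower). Their median log2 fold change, with genes that had no read in NP set at their bound, was 3.38 at 1 h, 4.39 at 6 h and 5.82 at 24 h over the 7, 9 and 10 genes with a fold. Over all genes it was -0.05, 0.00 and -0.14. In the comparison of MCC+GP CD69-hi with GP, where GP was present in both groups, 5 genes were higher and 0 lower at 1 h, 7 and 1 at 6 h, and 9 and 1 at 24 h, beside 33.8%, 46.7% and 58.5% of all genes. The shares of all genes called higher there were 13.7%, 23.5% and 29.5%, and those called lower 20.1%, 23.2% and 29%. Csf2 at 1 h was the gene that the first comparison called and the second did not.

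CD69-lo cells also carried some of these messages. Tnf had 257, 193 and 214 CPM in MCC CD69-lo at 1 h, 126 and 219 CPM at 6 h and 55.7, 57.3 and 63.1 CPM at 24 h, all above the NP libraries of the same time. Lta had 27.0, 10.2 and 13.4 CPM at 1 h, 21.9 and 30.4 CPM at 6 h and 34.0, 31.4 and 12.7 CPM at 24 h, likewise all above NP. Tnf was higher than in NP by 3.96 ± 0.50, 2.90 ± 0.58 and 3.80 ± 0.60 on the log2 scale at 1, 6 and 24 h (adjusted p = 2.17e-06, 0.00198 and 1.67e-05), and Lta by 1.73 ± 0.40, 2.86 ± 0.48 and 3.12 ± 0.44 (adjusted p = 0.00651, 0.000137 and 1.74e-06). At 6 h the Tnf call was lost without NP replicate 2 (adjusted p = 0.2) and when only the compared groups were fitted (adjusted p = 0.47). At 1 h the Lta call was lost without MCC CD69-lo replicate 1 or NP replicate 1 (adjusted p = 0.0889 and 0.0543).

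The set had 3 genes higher and 0 lower in MCC CD69-lo than in NP at 1 h, beside 3.15% of all genes called (2.72% higher, 0.436% lower). It had 3 and 0 at 6 h, beside 2.12% (2.12% higher, 0% lower), and 7 and 0 at 24 h, beside 18.5% (9.83% higher, 8.65% lower). Besides Tnf and Lta, the gene called at 1 h was Ccl4, at 4.88, 4.75 and 7.60 CPM against at most 0.857 CPM in NP (3.31 ± 0.78 on the log2 scale, adjusted p = 0.0097), and that at 6 h was Il3. The Ccl4 call was lost without NP replicate 2 or MCC CD69-lo replicate 3 (adjusted p = 0.0613 and 0.0721). Il3 had 59 reads in MCC CD69-lo 6 h replicate 2 and none in replicate 1, and the call was lost without replicate 2 (adjusted p = 1). The same library also held most of the Xcl1 and Ifng reads of its group, with 61 and 17 reads, against 6 and 0 in replicate 1.

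At 24 h Ccl3, Ccl4 and Xcl1 were higher in MCC CD69-lo than in NP, with Csf2 and Ifng. Ccl3 had 10.4, 1.30 and 41.7 CPM there against at most 0.456 CPM in NP (6.41 ± 1.28 on the log2 scale, adjusted p = 0.00043). Without replicate 3 the value was 4.28 (adjusted p = 0.099). Ccl4 had 8.50, 8.10 and 6.11 CPM against 1 read in NP (adjusted p = 0.00014). The ratio of their summed counts was 127, with a 95% counting interval of 21.7 to 5123. Xcl1 was at least 98.8-fold higher and Csf2 at least 10.1-fold higher than 3 counts over the NP group (adjusted p = 0.000762 and 0.0119), and the Csf2 call was lost without MCC CD69-lo replicate 3 (adjusted p = 0.0509).

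The single highest Ifng values of the series were found in the CD69-lo gate at 24 h. Ifng had 0, 0 and 232 CPM in MCC+GP CD69-lo, whose last value is 89 reads of 301455, and 7.56, 13.3 and 72.8 CPM in MCC CD69-lo. The MCC CD69-hi values given above overlapped those of MCC CD69-lo. Against NP, Ifng in MCC CD69-lo was higher by 7.79 ± 1.58 on the log2 scale (adjusted p = 0.000788), where the 2 reads of NP gave a 95% counting interval of 6.18 to 11.11. Against MCC CD69-lo, MCC CD69-hi had a log2 fold change of -2.25 ± 1.03 (adjusted p = 0.0597), which was not called. Without MCC CD69-lo replicate 3 it was -0.71 (adjusted p = 0.62), and without MCC CD69-hi replicate 3 it was -3.28 (adjusted p = 0.0276). Over the alternatives the adjusted p ran from 0.0219 to 0.62.

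Some genes of natural killer (NK) cells were high in the same groups. Ncr1, a receptor of NK cells, had 0.282 to 0.544 CPM in MCC CD69-hi at 24 h, 4.72 to 9.16 CPM in MCC CD69-lo and at most 0.201 CPM in NP. Gzmb, a granule protease of cytotoxic cells, had 6.90 to 18.4 CPM in MCC CD69-hi, 35.3 to 194 CPM in MCC CD69-lo and no read in NP, all at 24 h. Of 15 NK and CD8 T-cell genes, 14 had a count in MCC CD69-lo at 24 h, 15 in MCC CD69-hi and 12 in NP. Cd8b1, a gene of this list, overlapped between the groups. It had 6.80 to 19.3 CPM in MCC CD69-lo, 11.2 to 18.6 CPM in MCC CD69-hi and 11.3 to 24.3 CPM in NP. The sum of the list was 35.2 to 49.7 CPM in MCC CD69-hi, 155 to 354 CPM in MCC CD69-lo and 82.8 to 97.2 CPM in NP. The highest sum, the highest Gzmb value and the highest Ifng value of MCC CD69-lo stood in the same library, replicate 3. In MCC+GP CD69-lo at 24 h the sum was 578 CPM in replicate 1 and 675 CPM in replicate 3, with 274.7 and 376 CPM of Gzmb, but Ifng had no read in replicate 1 and 232 CPM in replicate 3. Replicate 2 held 99.4 CPM of the list and no read of Gzmb or Ifng. The part of such cells in the Ifng values was not tested.

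**Figure D3:**
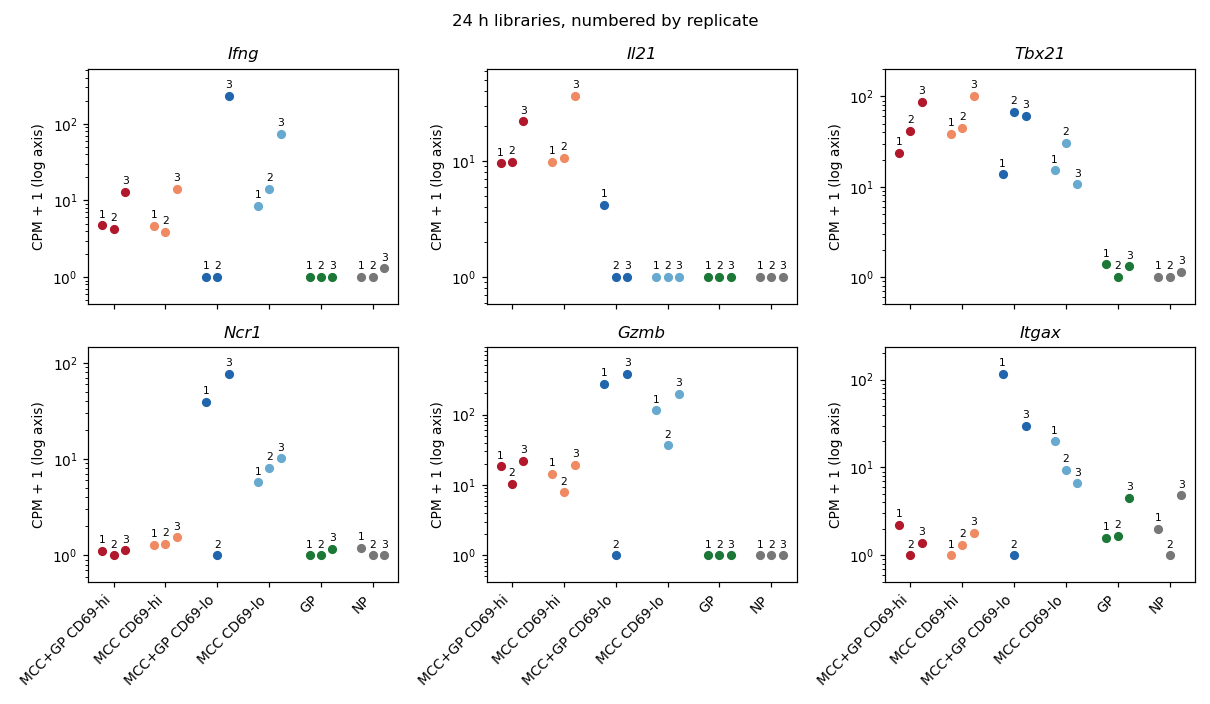
CPM + 1 on a log axis for Ifng, Il21, Tbx21, Ncr1, Gzmb and Itgax in the 24 h libraries, with 1 point per library marked by its replicate number and the 6 phenotypes left to right. Ncr1 stays at or below 0.544 CPM in MCC CD69-hi against 4.72 to 9.16 CPM in MCC CD69-lo, and Il21 reaches 8.58 CPM or more in each CD69-hi library against 1 read in the CD69-lo libraries. In the shallow MCC+GP CD69-lo group, 3 counts correspond to 3.96 CPM, so low levels are not resolved there.

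Between the gates of the MCC samples, Ccl3, Ccl4 and Lta were higher in CD69-hi cells at every time. Ccl3 was higher in MCC CD69-hi than in MCC CD69-lo by 3.22 ± 0.73, 4.24 ± 0.87 and 3.59 ± 0.64 on the log2 scale at 1, 6 and 24 h (adjusted p = 0.00253, 0.000126 and 1.23e-05). Ccl4 was higher by 2.85 ± 0.45, 5.07 ± 0.54 and 4.48 ± 0.48 (adjusted p = 2.65e-05, 4.49e-10 and 3.6e-10), and Lta by 1.62 ± 0.35, 2.90 ± 0.37 and 1.41 ± 0.34 (adjusted p = 0.00116, 1.49e-08 and 0.000501). The libraries of the gates did not overlap, except for Ccl4 at 1 h. The 1 h call for Ccl3 was lost when only the compared groups were fitted (adjusted p = 0.0981).

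Tnf separated the gates less. Its difference was 0.80 ± 0.43 at 1 h (adjusted p = 0.238), 1.5 ± 0.49 at 6 h (adjusted p = 0.0131) and 0.48 ± 0.47 at 24 h (adjusted p = 0.382), and the 6 h call was lost without MCC CD69-lo replicate 1 or MCC CD69-hi replicate 3 (adjusted p = 0.174 and 0.0557). Il3 and Il21 at 24 h had no read in MCC CD69-lo, and MCC CD69-hi was at least 63.7-fold and at least 36.8-fold higher than 3 counts over that group (adjusted p = 8.01e-08 and 4.5e-07). DESeq2 did not call the Il21 difference (adjusted p = 0.47). Xcl1 was higher in MCC CD69-hi at 6 h by 4.0 ± 0.87 (adjusted p = 0.0005), while at 24 h it had 15.2, 11.5 and 10.1 CPM in MCC CD69-hi and 32.1, 9.39 and 11.2 CPM in MCC CD69-lo. Of the 10 genes, 3 were higher and 0 lower at 1 h, 5 and 1 at 6 h, and 5 and 0 at 24 h, beside 12.5%, 42.4% and 61.7% of all genes called. Of all genes, 3.46%, 19.9% and 29.1% were higher and 9.06%, 22.5% and 32.6% lower at these times.

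The addition of GP to MCC, the question of the design, was followed by no called change in any of the 10 genes in the CD69-hi gate. None was called at 1, 6 or 24 h or as the mean of the 3 differences by edgeR, and none had an unadjusted p below 0.05 in any of these 4 tests. In DESeq2 the count was 0 in each as well. Over all genes, 0.68% were called at 1 h (0.227% higher, 0.453% lower), 0% at 6 h, 0% at 24 h and 0.0116% in the mean of times.

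The libraries of the abundant messages lay within the same range. At 6 h Tnf had 417, 419 and 612 CPM in MCC+GP CD69-hi against 260, 532 and 669 CPM in MCC CD69-hi, and Xcl1 had 89.2, 94.1 and 80.2 CPM against 90.6, 104 and 83.4 CPM. At 24 h Ccl3 had 242, 202 and 194 CPM in MCC+GP CD69-hi against 233, 183 and 208 CPM in MCC CD69-hi, and Il3 had 31.4, 26.9 and 29.5 CPM against 33.8, 28.2 and 31.8 CPM. These libraries overlapped in each case. For Csf2 at 24 h the libraries did not overlap, at 5.07, 4.84 and 3.83 CPM in MCC+GP CD69-hi against 3.66, 3.37 and 2.72 CPM in MCC CD69-hi. The log2 fold change was 0.49 ± 0.78 (adjusted p = 1). The share of all genes that separated in this way was not counted, so no change is read from it.

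The intervals give the sizes of change that these libraries leave possible. For the mean of times, the 95% interval of the log2 fold change of MCC+GP CD69-hi over MCC CD69-hi was -0.59 to 0.41 for Tnf, -0.49 to 0.25 for Lta, -0.46 to 0.88 for Ccl3 and -0.31 to 0.55 for Ccl4. It was wider for the scarce messages, at -1.47 to 2.42 for Ifng and -1.39 to 2.30 for Il3. At single times it was -1.34 to 1.19 for Xcl1 at 6 h and -1.63 to 0.65 for Il21 at 24 h.

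**Figure D4:**
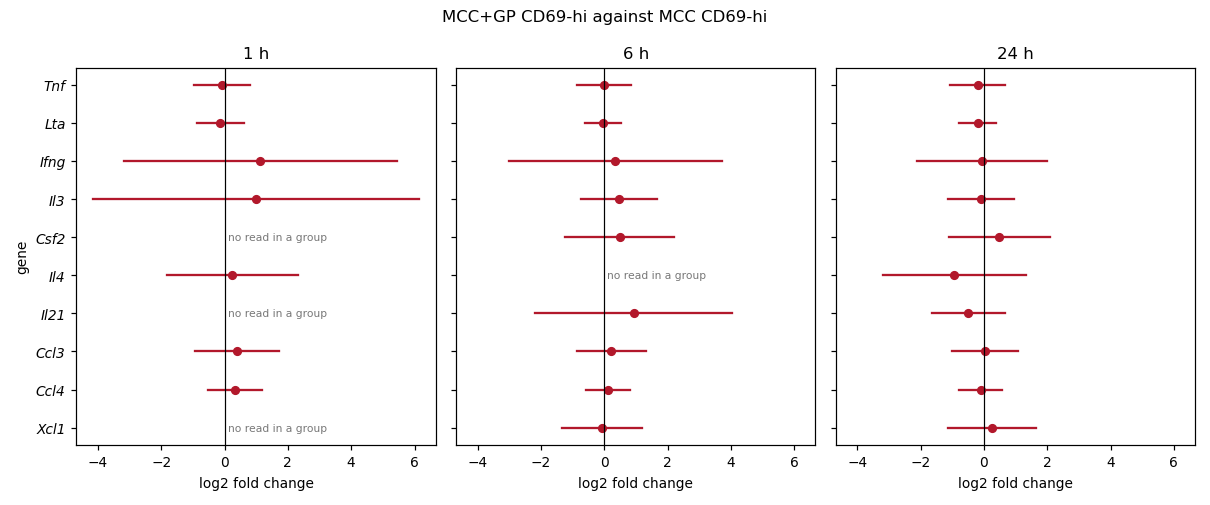
Log2 fold change of MCC+GP CD69-hi over MCC CD69-hi (point) with its 95% interval (line) for each gene at 1, 6 and 24 h; genes with no read in a group have no interval. Every interval drawn includes 0, and the intervals of Ifng and Il3 at 1 h are the widest.

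GP without MCC was followed by no called change either. Tnf had 21.7, 17.1 and 13.2 CPM in GP at 1 h against 13.2, 17.8 and 11.6 CPM in NP, and 4.61, 6.06 and 5.75 CPM at 24 h against 5.83, 4.33 and 2.73 CPM. None of the 10 genes was called at 1, 6 or 24 h or in the mean of times by edgeR, none had an unadjusted p below 0.05, and 0%, 0%, 0.00581% and 0% of all genes were called. DESeq2 called 1 gene at 1 h and 1 at 24 h, Ifng in both cases, on 2 reads in GP at 1 h and 2 reads in NP at 24 h. For the mean of times, the 95% interval was -0.82 to 0.64 for Tnf and -0.66 to 0.58 for Lta. The difference between the effect of GP in MCC CD69-hi cells and its effect without MCC was called for none of the 10 genes at any time by edgeR, and none had an unadjusted p below 0.05 (0.0232%, 0% and 0% of all genes called).

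In the CD69-lo gate, Lta at 24 h was the single call among the 10 genes when MCC+GP was set against MCC, beside 19.3% of all genes called (7.37% higher, 12% lower). It had 185, 49.7 and 154 CPM in MCC+GP CD69-lo, which are 58, 3 and 59 reads, against 34.0, 31.4 and 12.7 CPM in MCC CD69-lo. The groups did not overlap, and the log2 fold change was 2.57 ± 0.41 (adjusted p = 1.57e-05). These MCC+GP CD69-lo samples are those with the few reads and with 4755 to 8344 CPM of myeloid and dendritic genes, and the part of both in this value was not tested. At 1 h and 6 h no member was called by edgeR, beside 0% and 0% of all genes. At 6 h 5 of the 10 genes had an unadjusted p below 0.05, beside 971 of the 17211 genes tested. Tnf had 275, 417 and 426 CPM at 6 h in MCC+GP CD69-lo against 126 and 219 CPM in MCC CD69-lo (1.11 ± 0.49, adjusted p = 0.874).

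The comparisons of MCC+GP CD69-lo with GP called 3, 5 and 6 of the genes higher and 0 lower at 1, 6 and 24 h, beside 2.18%, 10.3% and 33.7% of all genes (1.99%, 7.41% and 15.3% higher; 0.186%, 2.92% and 18.4% lower). Those of MCC+GP CD69-hi with MCC+GP CD69-lo called 4 higher and 0 lower at 1 h, 5 and 1 at 6 h, and 4 and 2 at 24 h, beside 18.7%, 46.1% and 46.6% (5.4%, 20.9% and 26.5% higher; 13.3%, 25.2% and 20% lower). The 2 genes lower at 24 h were Ifng and Lta. Il21 was among those higher at 24 h, against 1 read in MCC+GP CD69-lo, and its call was lost in 6 of 11 alternatives. Without MCC+GP CD69-lo 24 h replicate 3, the Ifng log2 fold change between the gates was 7.92, in place of -3.86, and was not called (adjusted p = 0.421).

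Ordered by mean CPM over the 18 groups, Tnf and Lta were both highest in MCC CD69-hi at 6 h and next in MCC+GP CD69-hi at 6 h. The 8 highest groups of Tnf followed each other with overlapping libraries, and MCC CD69-lo at 6 h (173 CPM) was the first that lay apart from the next. Ccl3, Il3 and Il21 were highest in the 2 CD69-hi groups of 24 h, and for each of these genes the libraries of that pair overlapped each other and lay above all libraries of the group ranked next. For Ccl4 the first 4 groups, the CD69-hi groups of 24 h and 6 h, overlapped in a chain and lay above the fifth. Ifng and Csf2 were highest in MCC+GP CD69-lo at 24 h, where they rested on 89 and 8 reads.

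Of 34 other cytokines and chemokines tested, 17 were higher and 3 lower in MCC CD69-hi than in NP at 1 h, 17 and 6 at 6 h, and 15 and 4 at 24 h, beside 29.4%, 46.7% and 57.8% of all genes called at these times. Their median log2 fold change was 2.68, 2.83 and 1.49, which includes fitted values of genes with no read in NP. Lif, a cytokine of the interleukin 6 family, had 73.7 ± 41.0 CPM in MCC CD69-hi at 1 h against 1.04 ± 0.90 CPM in NP (SD, n = 3 each). Tnfsf14, which encodes LIGHT, had 164 ± 23.9 CPM at 6 h against 0.0879 ± 0.124 CPM, and Tnfsf11, which encodes RANK ligand, had 208 ± 58.6 CPM at 24 h against 0.436 ± 0.515 CPM. Il2, the growth factor of the T cells themselves, had 8.55 ± 6.24 CPM in MCC CD69-hi at 1 h, 141 ± 27.4 CPM at 6 h and 546 ± 35.2 CPM at 24 h, against at most 0.615 CPM in any NP library. Its log2 fold change for MCC+GP CD69-hi over MCC CD69-hi was -0.13 ± 0.32 at 24 h (adjusted p = 1).

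Of 14 receptors tested for the 10 products, 8 were higher and 5 lower in MCC CD69-hi than in NP at 1 h, 3 and 3 at 6 h, and 1 and 6 at 24 h, with medians of 0.95, 0.33 and -0.84. Of all genes, 29.4%, 46.7% and 57.8% were called at these times, and the counts at 6 h and 24 h were no larger a share of the receptors. Both chains of the interferon gamma receptor fell at 6 h: Ifngr1 had 20.7 ± 4.36 CPM in MCC CD69-hi against 909 ± 101 CPM in NP, and Ifngr2 had 17.2 ± 5.72 CPM against 114 ± 12.4 CPM. Csf2rb, the shared beta chain for the Il3 and Csf2 products, was higher at 1 h, at 42.8 ± 23.1 CPM against 5.95 ± 3.33 CPM, together with the B-cell, MHC class II and myeloid lists given above. It was lower at 24 h, at 5.13 ± 4.17 CPM against 21.7 ± 17.0 CPM.

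Among 30 transcription factors with known roles at cytokine genes, 15 were higher and 6 lower in MCC CD69-hi than in NP at 1 h, 15 and 8 at 6 h, and 14 and 6 at 24 h, with medians of 0.69, 0.66 and 0.45, beside 29.4%, 46.7% and 57.8% of all genes called. Irf4, which responds to the strength of receptor signals, had 1425 ± 39.1 CPM in MCC CD69-hi at 1 h, 2068 ± 217 CPM at 6 h and 1183 ± 139 CPM at 24 h, against 93.8 ± 29.0, 77.9 ± 24.9 and 12.0 ± 2.87 CPM in NP at the same times. Tbx21 had 60.6 ± 34.9 CPM at 24 h against 0.0506 ± 0.0877 CPM.

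Of 15 genes that control decay or translation of cytokine RNA, 4 were higher and 6 lower in MCC CD69-hi than in NP at 1 h, 6 and 6 at 6 h, and 5 and 9 at 24 h, with medians of -0.03, -0.26 and -0.58, beside the same shares of all genes, 29.4%, 46.7% and 57.8%. Zfp36 had 603 ± 251 CPM in MCC CD69-hi at 1 h against 188 ± 32.6 CPM in NP, and 72.2 ± 10.1 CPM at 24 h against 292 ± 108 CPM. Its relative Zfp36l2 was lower at 1 h and 6 h, and Pdcd4, a repressor of translation, fell to 18.1 ± 3.39 CPM in MCC CD69-hi at 6 h, against 283 ± 18.2 CPM in NP. Malt1, a protease that cleaves several regulators of RNA decay, was higher at 6 h, at 559 ± 150 CPM against 82.1 ± 0.333 CPM.

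Of 16 target genes of interferon gamma, 3 were higher and 2 lower in MCC CD69-hi than in NP at 1 h, 0 and 12 at 6 h, and 2 and 10 at 24 h, with medians of -0.14, -2.39 and -0.86, beside 29.4%, 46.7% and 57.8% of all genes called. At 6 h the sum of the list was 1111 to 1669 CPM in MCC CD69-hi and 6690 to 9114 CPM in NP, which had no Ifng read, whereas NP summed to 2250 to 3382 CPM at 1 h. In MCC CD69-lo at 24 h 16 were higher and 0 lower than in NP (median 1.89), beside 18.5% of all genes called, and the sum of the list was 999 to 1853 CPM in MCC CD69-hi, 10097 to 11221 CPM in MCC CD69-lo and 2098 to 3329 CPM in NP. MCC+GP CD69-lo at 24 h, with the highest single Ifng value, summed to 3877 to 6874 CPM. Gbp2, a guanylate-binding protein, had 1854 ± 253 CPM in MCC CD69-lo at 24 h against 118 ± 51.2 CPM in NP. Many of these targets also respond to type I interferons, and other cells of the sort express them too.

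Across the 18 group means, the genes closest to each member in log2(CPM + 1) were described by Pearson's r among 13046 genes with a group mean of at least 5 CPM, as a description with no test, since the group means share cells, gates and times. Gadd45b (0.98), Slamf7 (0.951) and Gfi1 (0.951) were closest to Tnf, and Srxn1, Bcl2a1d and Tnfsf14 were closest to Lta (0.959 to 0.966). Crtam and Il15ra were among the 3 closest to Xcl1, with Phactr2 first (0.954). For Ccl4 they were Rap1a, Cycs and Pdcd1 (0.975 to 0.98). For Il21 they were the DNA replication and repair genes Mcm3 (0.987), Parpbp (0.98) and Exo1 (0.977). Within the set, Ccl3 and Ccl4 were the closest pair at 0.922, Tnf and Lta stood at 0.824 and Tnf and Il21 at 0.013.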

How the data were processed

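Poly-adenylated RNA of 51 libraries was sequenced in paired reads, per the labels' protocols. Reads were handled with bcl2fastq 2.20, STAR 2.6.1c and HTSeq 0.9.1 on mm10, per the submitters' processing notes; the settings are not given in the sources used here. The authors deposited raw counts per gene, and the deposited TPM values sum to about 10000 in each library. Counts were tested in 1 edgeR 4.0.16 fit (R 4.3.3, limma 3.58.1) of all libraries with 1 coefficient per group, TMM scaling and a filter on low counts by group, which kept 17211 genes. The quasi-likelihood test was two-sided with Benjamini-Hochberg adjustment at 0.05. Standard errors are the log2 fold change divided by the square root of F, and intervals are at 95%. The fit was tested on simulated data. TPM served only for levels between genes. Against a group with no count, a fold is a lower bound at 3 counts over the group, and against 1 to 3 counts the exact interval of the ratio of summed counts is given; both cover counting error only. Depth, 29030 to 10278776 counts, sets the precision of scarce genes. In each of the 48 pairs of libraries within a group, counts differed by more than sampling noise (chi-square per degree of freedom 4.17 to 21.7). Alternatives were RLE scaling, no filter, DESeq2 1.42.0, the compared groups alone, a plate round block, and each of the 51 libraries left out. The 10 genes and all lists were chosen with earlier results of these data known. From each list, up to 4 called genes with the largest fold change per comparison could be named.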

Additional observations from a re-analysis of the deposited data

Results flagged for a closer look

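For 4 of the 10 genes a change with time in the difference between MCC CD69-hi and NP was called in edgeR's quasi-likelihood fit (adjusted p over all genes). The test called 2 genes at 6 h against 1 h, 0 at 24 h against 6 h and 3 at 24 h against 1 h. Of all genes, 29.9%, 22.9% and 45.1% were called, which are larger shares than those of the 10 genes. For Lta the difference was larger at 6 h than at 1 h by 2.41 on the log2 scale (adjusted p = 0.00189), and every MCC CD69-hi library of 6 h (168 to 220 CPM) lay above those of 1 h. For Ccl4 it was larger at 24 h than at 1 h by 4.78 (adjusted p = 0.0331), a call that was lost in 7 of 18 alternatives.

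For Il4 the difference was smaller at 6 h than at 1 h, with a change of -7.69 (adjusted p = 0.000145), and smaller at 24 h than at 1 h, with a change of -5.59 (adjusted p = 0.0014). Without MCC CD69-hi 1 h replicate 3, which held all 17 reads of its group, the values were -1.35 (adjusted p = 0.953) and 0.74 (adjusted p = 0.79). For Il21 the change at 24 h against 1 h was 11.93 (adjusted p = 0.00183), a fitted value that rests on 2 reads in NP at 1 h and none in NP at 24 h, and DESeq2 did not call it (adjusted p = 0.558). No single library was tested for standing apart within its group, since groups hold 2 or 3 libraries.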

How the results depend on the processing

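Of 162 gene values called over 47 comparisons, 104 kept direction and call in every alternative run, and 46 uncalled values were called in at least 1. Of the 47 counts of called genes, 29 stayed within 1.5 times. The others follow, and the cause was not tested. The shares of all genes called in each alternative are not given here. A moved count therefore cannot be told from a general change in calls. DESeq2 called 6 genes in MCC CD69-lo against NP at 6 h, 1 in MCC+GP CD69-lo against MCC CD69-lo at 6 h, 1 in GP against NP at 1 h and 1 at 24 h, 1 in the difference of GP effects at 1 h and 1 at 24 h, and 3 in MCC+GP CD69-hi against MCC+GP CD69-lo at 24 h. For 24 h against 6 h it called 4 in MCC CD69-hi, 2 in MCC+GP CD69-hi, 2 in MCC CD69-lo and 2 in NP, for 6 h against 1 h 0 in NP, and for MCC CD69-hi minus NP 1 at 24 h against 6 h and 6 at 24 h against 1 h. With no filter on low counts, 1 gene was called in MCC+GP CD69-lo against MCC CD69-lo at 6 h and 1 in NP at 24 h against 1 h. With only the compared groups, the counts were 3 in MCC+GP CD69-lo against GP at 6 h, 1 in MCC CD69-lo at 6 h against 1 h, 0 in NP at 24 h against 6 h, and 1 in MCC CD69-hi minus NP at 24 h against 6 h.

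An alternative chosen after seeing the data, without the 3 shallow MCC+GP CD69-lo 24 h libraries and the first NP libraries of 6 h and 24 h, gave 3 in MCC CD69-lo at 24 h against 6 h, 0 in NP at 6 h against 1 h and 0 in NP at 24 h against 6 h. Plate rounds, inferred from the order of the wells in the sample titles, were tried as a replicate block. The titles themselves name no round. Deviations of same-round libraries correlated at a median of 0.175 (lowest -0.216, 321 pairs), with 68.2% of pairs over 0.1, against a median of -0.07 and 9.84% of 762 pairs of different rounds. Libraries of a round thus deviated together on the whole, but not in every pair. The main fit holds no term for the rounds, so its p-values do not account for this shared deviation. With the block, 2 genes were called in MCC CD69-lo at 24 h against 6 h, and the other counts stayed within 1.5 times.

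With each library left out in turn, the counts ran from 1 to 3 in MCC CD69-lo against NP at 6 h, 0 to 1 in MCC+GP CD69-lo against MCC CD69-lo at 6 h, 3 to 5 in MCC+GP CD69-lo against GP at 6 h and 3 to 6 in MCC+GP CD69-hi against MCC+GP CD69-lo at 24 h. They ran from 1 to 4 in MCC CD69-lo at 6 h against 1 h and 0 to 1 at 24 h against 6 h, from 0 to 1 in NP at 6 h against 1 h and at 24 h against 6 h and 0 to 2 at 24 h against 1 h, and from 1 to 2 in MCC CD69-hi minus NP at 6 h against 1 h.

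Log2 fold changes of 5 genes turned with 1 library. For Il4, leaving out libraries in turn gave -2.97 to 4.15 in MCC CD69-hi against NP at 1 h, -4.78 to 2.28 and -3.73 to 3.95 in MCC CD69-hi at 6 h and 24 h against 1 h, and -6.89 to 0.74 in MCC CD69-hi minus NP at 24 h against 1 h. For Il3 they were -1.46 to 7.08 in MCC CD69-hi against MCC CD69-lo at 6 h, called both at its lowest (adjusted p = 0.0326) and its highest value (adjusted p = 0.000309), and -2.62 to 5.92 in MCC CD69-lo at 6 h against 1 h. Between MCC+GP CD69-hi and MCC+GP CD69-lo, Csf2 at 6 h ran from -1.41 to 3.85, Ifng at 24 h from -4.76 to 7.92 and Xcl1 at 24 h, not called, from -2.22 to 0.06. Ifng, also not called, ran from -2.62 to 4.13 in MCC CD69-lo at 6 h against 1 h, from -0.39 to 3.13 in MCC CD69-hi minus NP at 24 h against 1 h, and, in the difference of GP effects, from -7.49 to 1.17 (1 h) and from -0.06 to 3.36 (24 h). In DESeq2, Ifng in MCC CD69-hi minus NP was -12.74 at 24 h against 6 h and -11.92 at 24 h against 1 h, where NP held 2 reads of Ifng. Below about 3 counts over a group, levels were not resolved at this depth.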
